A study of Mus musculus with 96 samples.

Results

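Nuclei sorted into the 2N+ gate were compared with nuclei sorted into the 2N gate by single-nucleus whole-genome sequencing of KPC1199EGFP, a mouse pancreatic tumour cell line of C57BL/6 background that carries a green fluorescent protein reporter. The cells were an adherent culture at passage 9 that had received no treatment, and both gates share all of this. Nuclei were stained with the DNA dye DAPI, and a flow cytometer separated them by DNA content. The gate and the index numbers of the libraries are the only labelled differences between the groups. The members were chosen by their titles: 47 single 2N nuclei and 35 single 2N+ nuclei, 82 of 96 libraries in all. The other 14 libraries, which are 12 nuclei of a 4N gate and 1 bulk library for each of the 2N and 2N+ gates, entered no gate value and are given only beside the results.

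A cell that has not yet copied its genome carries each chromosome in a fixed number of copies, and a DAPI gate reads the total. In an aneuploid line, in which chromosomes are present in unequal numbers, cells of the same culture can differ in that total by whole chromosomes or by parts of them. Gains and losses of whole chromosomes arise when chromosomes are shared out unequally at cell division, and changes of a part of a chromosome need a break in the DNA. Both are common in pancreatic cancer. A nucleus that is partway through copying its genome also holds more DNA than before, and a DAPI gate alone does not tell it from a nucleus with additional chromosomes.

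Each library was given as segmented copy ratios in 4636 autosomal bins with a median width of 486 kb, counted in the mouse build mm9, so values are equal over long runs of bins. All ratios below were divided by the median of chromosome 4 of the same nucleus. A ratio of 1 is therefore the level of chromosome 4, and if chromosome 4 has 2 copies, then 1.5 stands for 3 copies, 2 stands for 4 copies and 1 copy is a step of 0.5. A chromosome or section is called raised where its ratio is at or above the midpoint between the levels of 2 and 3 copies, and high where it is at or above the midpoint between those of 3 and 4 copies, so a high section is also raised. Chromosome 4 itself was even in 74 of the 82 nuclei, which had no bin of it off its median by more than 0.1. In 4 nuclei, 3 of them 2N and 1 2N+, more than 5% of its 295 bins were off, and in 2N nucleus 7 these were 50.2%. All nuclei came from 1 culture, so a gate is 1 sample of many cells. No p-value was computed, an SD describes the spread of nuclei, and the exact Clopper-Pearson intervals at 95% cover counting error only. The depth of the libraries is unknown, since the values are not counts. The 2N nuclei carry index numbers 1 to 48 and the 2N+ nuclei 49 to 83, so gate and index number cannot be told apart. On chromosome 1 no bin starts between 99891381 and 142995387. The bin at the first of these positions was kept at its start, and the rest of the span was not analysed here.

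The gate labels were first set against the summed signal. The mean ratio over all autosomal bins was lowest at 1.15, at a median of 1.22 and highest at 1.39 in the 2N gate. Among 2N+ nuclei it was lowest at 1.2, at a median of 1.31 and highest at 1.41. The 2N+ nuclei thus lay higher, and the gates overlapped. The mean was 1.23 ± 0.0576 (SD, n = 47) for 2N nuclei and 1.32 ± 0.0477 (SD, n = 35) for 2N+ nuclei. The difference of 0.0881 is 7.15% of the 2N mean and is larger than the SD of either gate. Above the 2N median lay 33 of 35 2N+ nuclei, and above the 2N+ median lay 5 of 47 2N nuclei. In the 12 nuclei of the 4N gate the median was 1.23, near that of the 2N gate. A ratio to chromosome 4 cannot show a doubling of the whole genome.

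The additional signal was unevenly placed. Chromosome 3 held 28.4% of the difference in the mean ratio, chromosome 2 held 17%, chromosome 15 held 15.2% and chromosome 16 held 10.9%. Chromosomes 5, 18, 1 and 8 held 9.03%, 8.19%, 6.24% and 5.19%. Chromosome 12 had the lowest part, at -2.87%, and 6 of 19 autosomes were below 0. Chromosomes 2, 3, 8, 15 and 16 together held 76.7% of it. These 5 hold the stretches described below, which were chosen on the gate difference. A part also grows with the number of bins of a chromosome. The mean difference per bin was 0.377 on chromosome 3, 0.307 on 15, 0.231 on 16, 0.194 on 2 and 0.188 on 18. On chromosomes 5, 1 and 8 it was 0.127, 0.0886 and 0.0845.

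**Figure D1:**
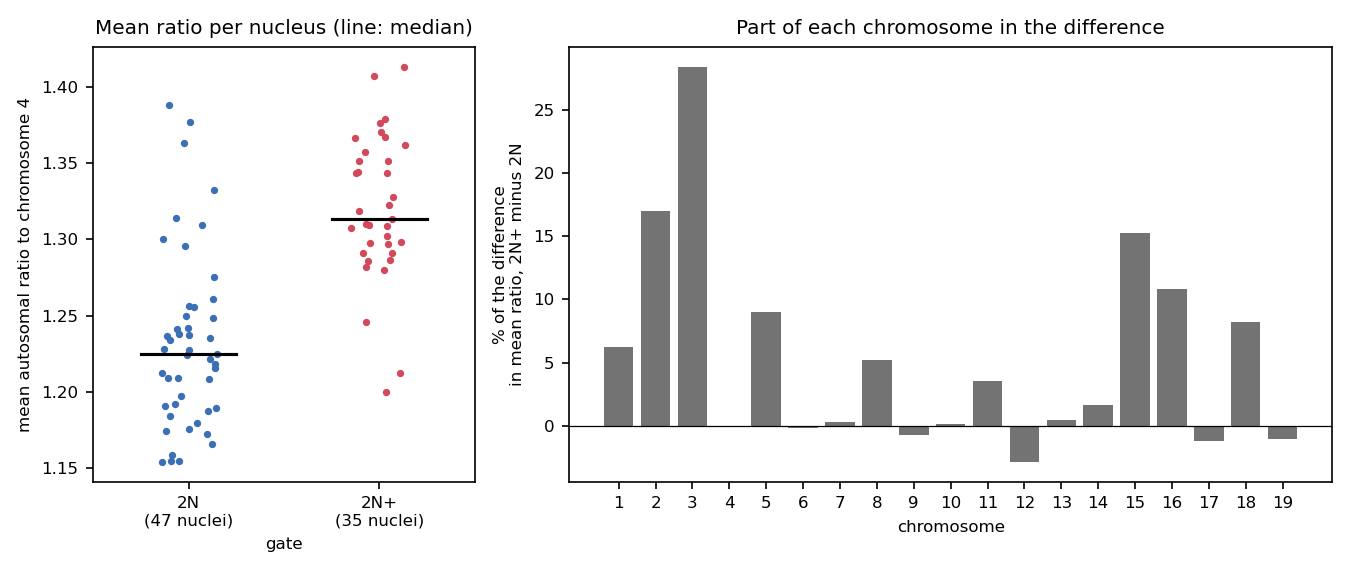
Left, mean ratio to chromosome 4 over all autosomal bins in each nucleus (points) with the gate median (line), on a ratio axis that does not start at 0. Right, the percentage of the 2N+ minus 2N difference in that mean that falls on each autosome (bars). The 2N+ median was 1.31 and the 2N median 1.22, and the bars of chromosomes 3, 2, 15 and 16 are the highest.

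The comparison by bin showed bins that were higher in 2N+ nuclei and none that was lower. A bin was called where the gate medians differed by 0.25 or more, which is midway through a step of 1 copy. Higher in the 2N+ gate were 766 of 4636 autosomal bins (16.5%), and lower were 0 of 4636 (0%). All 308 bins of chromosome 3 and all 203 bins of chromosome 15 were among them, and these 2 chromosomes held 66.7% of the called bins. The other 255 lay on chromosome 16 (103 of 192 bins), chromosome 8 (76 of 251), chromosome 2 (75 of 358) and chromosome 5 (1 of 291). Bin differences ran from -0.08 to 0.47, and 3849 bins differed by less than 0.1. In no bin did all 2N+ nuclei lie above, or all lie below, all 2N nuclei.

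Gate means, which also register a state held by a minority of nuclei, gave a wider picture. The mean was higher for 2N+ nuclei in 3271 bins (70.6%), and by 25% of a copy step or more in 1476 bins. Among them were bins not called by the medians: all 178 bins of chromosome 18, 265 of 358 of chromosome 2, 131 of 291 of chromosome 5 and 72 of 288 of chromosome 1. The difference of medians in these bins was at most 0.0541 on chromosome 18, 0.106 on chromosome 2, 0.229 on chromosome 5 and 0.0418 on chromosome 1. On chromosome 16, 167 of 192 bins were higher by that much in the means, where 103 were called by the medians. By the gate means 10 bins were lower in the 2N+ gate by 25% of a copy step or more. All lay at the start of chromosome 1 between 3559438 and 9656254. Their mean was 1.7 for 2N and 1.56 for 2N+ nuclei, while the medians were 1.49 and 1.51.

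**Figure D2:**
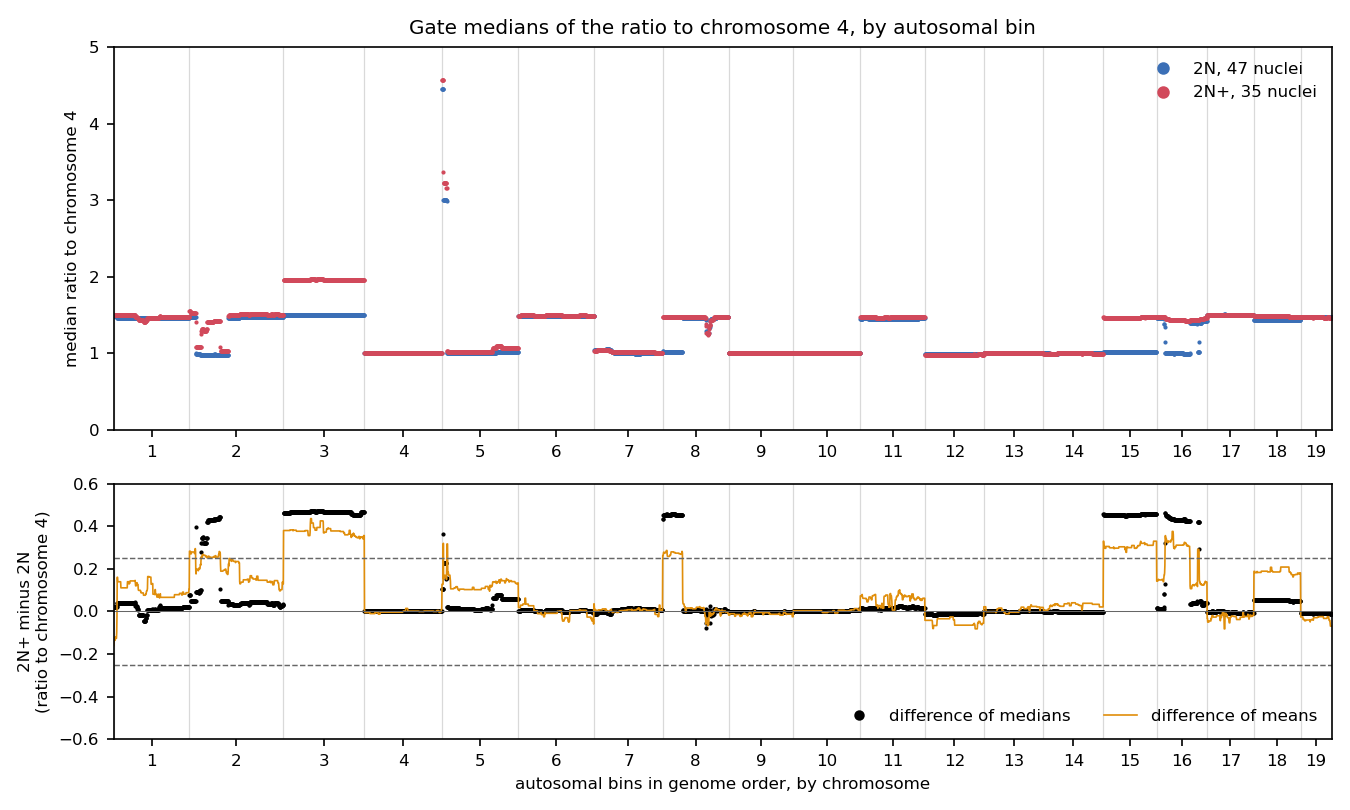
Upper panel, gate median of the ratio to chromosome 4 in each autosomal bin for 47 2N nuclei and 35 2N+ nuclei. Lower panel, the 2N+ minus 2N difference of medians (points) and of means (line), with dashed lines 0.25 above and below 0. Chromosomes 3 and 15 stand above 0.25 over their whole length, and parts of chromosomes 2, 8 and 16 do.

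Neighbouring called bins formed 6 stretches of at least 5 bins, which held 764 bins. They covered 16.5% of the autosomal bins and 61.3% of the difference in the mean ratio. Outside them the mean ratio was still higher in the 2N+ gate, at 1.26 against 1.22. The stretches are where the gates differed most, so their gate values describe the choice. At the level of whole chromosomes, 3 of 18 autosomes other than chromosome 4 (16.7%) were higher in the 2N+ gate by 0.25 or more in the gate median. These were chromosomes 3, 15 and 16, and 0 of 18 (0%) were lower. With each chromosome taken as its mean over bins, the difference of chromosome 16 was 0.254 in place of 0.422, just past the threshold. That of chromosome 2 was then 0.133 in place of 0.0437, and that of chromosome 5 was 0.0628 in place of 0.0126.

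Chromosome 3 had the largest difference of medians among the autosomes. Its ratio was lowest at 1.46, at a median of 1.5 and highest at 1.98 among 2N nuclei, and lowest at 1.53, at a median of 1.97 and highest at 2.31 among 2N+ nuclei. Most 2N nuclei thus sat at the level of 3 copies and most 2N+ nuclei at that of 4 copies. It was high in 30 of 35 2N+ nuclei against 5 of 47 2N nuclei, and raised in every nucleus of both gates. The difference of medians was 0.466, against SDs of 0.143 (2N) and 0.159 (2N+). The levels were well apart: the highest 2N+ nucleus that was not called high was at 1.62 and the lowest called high at 1.93. Among 2N nuclei these values were 1.68 and 1.87.

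Chromosome 15 differed by a similar amount, from a lower base. Its ratio was lowest at 0.989, at a median of 1.02 and highest at 1.59 among 2N nuclei, and lowest at 1.0, at a median of 1.47 and highest at 1.82 among 2N+ nuclei. It was raised in 31 of 35 2N+ nuclei against 12 of 47 2N nuclei. The median difference of 0.451 was more than the SDs of 0.197 (2N) and 0.154 (2N+). Between 1.12 and 1.41 there was no 2N+ nucleus, and 1 2N nucleus lay within 0.1 of the midpoint, at 1.2. The change thus had the size of a step of 1 copy over the whole chromosome in both cases, chromosome 3 from 3 to 4 copies and chromosome 15 from 2 to 3 copies, if chromosome 4 has 2.

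On chromosome 16 the gates differed most in an inner section. The longer stretch ran from 18611456 to 66290027 in mm9 (96 bins). Its ratio was lowest at 0.953, at a median of 0.999 and highest at 1.47 among 2N nuclei, and lowest at 0.981, at a median of 1.43 and highest at 2.23 among 2N+ nuclei. It was raised in 22 of 35 2N+ nuclei against 4 of 47 2N nuclei, and high in 4 against 0. The means were 1.35 ± 0.308 (SD, n = 35) and 1.04 ± 0.130 (SD, n = 47). A short stretch from 80661654 to 84241392 (7 bins) was raised in 22 and 5 nuclei. Outside these stretches the gates were closer, though the means were still higher among 2N+ nuclei. The start of the chromosome, up to 18611455, was raised in 27 of 35 2N+ and 29 of 47 2N nuclei, with medians of 1.47 and 1.46. Its means were 1.48 and 1.33. From 66290028 to 80661653, and again from 84241393 on, 26 of 35 2N+ and 28 of 47 2N nuclei were raised. The means of these sections were 1.39 and 1.42 for 2N+ nuclei and 1.27 and 1.29 for 2N nuclei.

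Read along each nucleus, chromosome 16 had 3 main forms. The start and the section after the longer stretch were raised while the middle was not in 24 of 47 2N nuclei (51.1%, 95% interval 36.1 to 65.9) against 4 of 35 2N+ nuclei (11.4%, 3.20 to 26.7). All were raised in 4 of 47 2N nuclei (8.51%, 2.37 to 20.4) against 22 of 35 2N+ nuclei (62.9%, 44.9 to 78.5). None was raised in 18 of 47 2N nuclei (38.3%, 24.5 to 53.6) against 8 of 35 2N+ nuclei (22.9%, 10.4 to 40.1). The first and second forms differ in the longer stretch, which was chosen where the gates differed, so their shares describe that choice.

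Chromosome 8 differed at its start. The stretch ran from 1 to 43640395 (76 bins), with a ratio that was lowest at 0.981, at a median of 1.02 and highest at 1.56 among 2N nuclei. Among 2N+ nuclei it was lowest at 0.577, at a median of 1.47 and highest at 1.61. The means were 1.13 ± 0.2 (SD, n = 47) and 1.41 ± 0.211 (SD, n = 35). The rest of the chromosome, from 43640396 to 131738871, had a median of 1.47 in both gates and means of 1.44 (2N) and 1.43 (2N+). A raised rest with a start that was not raised was the most frequent form among 2N nuclei, in 31 of 47 (66%, 50.7 to 79.1), against 3 of 35 2N+ nuclei (8.57%, 1.8 to 23.1). Both were raised in 29 of 35 2N+ nuclei (82.9%, 66.4 to 93.4) against 11 of 47 2N nuclei (23.4%, 12.3 to 38). A raised start with a rest that was not raised was seen in 1 2N+ nucleus and in 0 of 47 2N nuclei, for which the exact interval reaches up to 7.55%.

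On chromosome 2 the gate medians differed most in an inner stretch. It ran from 25296820 to 61434715 (74 bins). Among 2N nuclei its ratio was lowest at 0.515, at a median of 0.984 and highest at 1.44. Among 2N+ nuclei it was lowest at 0.970, at a median of 1.42 and highest at 2.24. The means were 1.03 ± 0.162 (SD, n = 47) and 1.29 ± 0.272 (SD, n = 35), so the difference was near the SD of the 2N+ gate. It was raised in 20 of 35 2N+ nuclei (57.1%, 39.4 to 73.7) against 6 of 47 2N nuclei (12.8%, 4.83 to 25.7). The section before it, from 1 to 25296819, was raised by its median over bins in 32 of 35 2N+ and 30 of 47 2N nuclei. There the medians were 1.53 (2N+) and 1.48 (2N), and the means were 1.66 and 1.39. That difference of means, 0.271, was above the 0.259 of the stretch, so the gates did not differ in the stretch alone. The section after the stretch, from 61434716 to 181748087, was raised in 35 of 35 2N+ and 45 of 47 2N nuclei. A chromosome 2 with that distal section raised and the inner stretch not was present in 39 of 47 2N nuclei (83%, 69.2 to 92.4) against 15 of 35 2N+ nuclei (42.9%, 26.3 to 60.6). The whole chromosome, by its median, was raised in 32 of 35 2N+ nuclei against 29 of 47 2N nuclei, and high in 11 against 6.

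**Figure D3:**
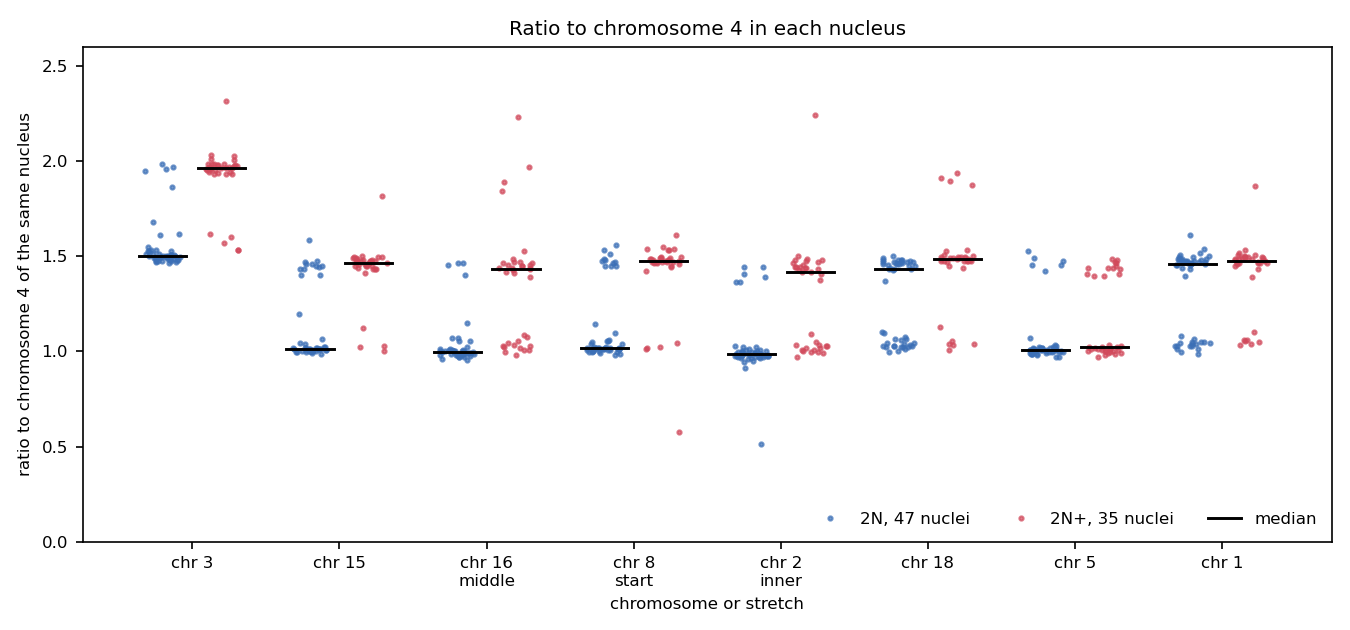
Ratio to chromosome 4 in each nucleus (points) of the 2N and 2N+ gates, with the gate median (line), for whole chromosomes 3, 15, 18, 5 and 1 and for the called stretches of chromosome 16 (the longer), 8 and 2. Nuclei gather near 1, 1.5 and 2, and the gates differ in how many nuclei sit at each level more than in the levels.

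Chromosomes 5 and 18 differed between gates in the share of raised nuclei and hardly in the median. Chromosome 18 was lowest at 0.995, at a median of 1.43 and highest at 1.5 among 2N nuclei, and lowest at 1.01, at a median of 1.49 and highest at 1.94 among 2N+ nuclei. It was raised in 26 of 47 2N and 29 of 35 2N+ nuclei, and high in 0 and 4 nuclei. Chromosome 5 was lowest at 0.970, at a median of 1.01 and highest at 1.53 among 2N nuclei, and lowest at 0.973, at a median of 1.02 and highest at 1.49 among 2N+ nuclei, and it was raised in 6 of 47 and 13 of 35 nuclei. The differences of medians, 0.0540 for chromosome 18 and 0.0126 for chromosome 5, were smaller than the SDs of either gate. Both chromosomes were raised in the same nucleus in 11 of 35 2N+ nuclei (31.4%, 16.9 to 49.3) against 1 of 47 2N nuclei (2.13%, 0.0539 to 11.3). Neither was raised in 4 of 35 (11.4%, 3.20 to 26.7) and 16 of 47 (34%, 20.9 to 49.3).

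The start of chromosome 5, the highest section of the autosomes, differed little between gates. From 1 to 5715257 (5 bins) the ratio was lowest at 3.14, at a median of 4.46 and highest at 7.11 among 2N nuclei, and lowest at 2.81, at a median of 4.56 and highest at 6.71 among 2N+ nuclei. From 5715258 to 14159645 (14 bins) the medians were 3.0 and 3.23, and the means were 3.22 ± 0.521 (SD, n = 47) and 3.39 ± 0.564 (SD, n = 35). Both differences were within the SD of either gate.

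The other 12 autosomes differed by -0.012 to 0.0178 in the gate medians and by -5.71 to 16.2 percentage points in the share of raised nuclei. The upper end of that range was chromosome 1, with 28 of 35 2N+ and 30 of 47 2N nuclei. By bin, its share of raised nuclei differed by 20 percentage points or more in 55 of 288 bins, and by at most 24.7. Chromosomes 7, 9 and 10 were raised in no nucleus of either gate. The SD over nuclei was larger in the 2N+ gate for 11 of 18 autosomes.

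**Figure D4:**
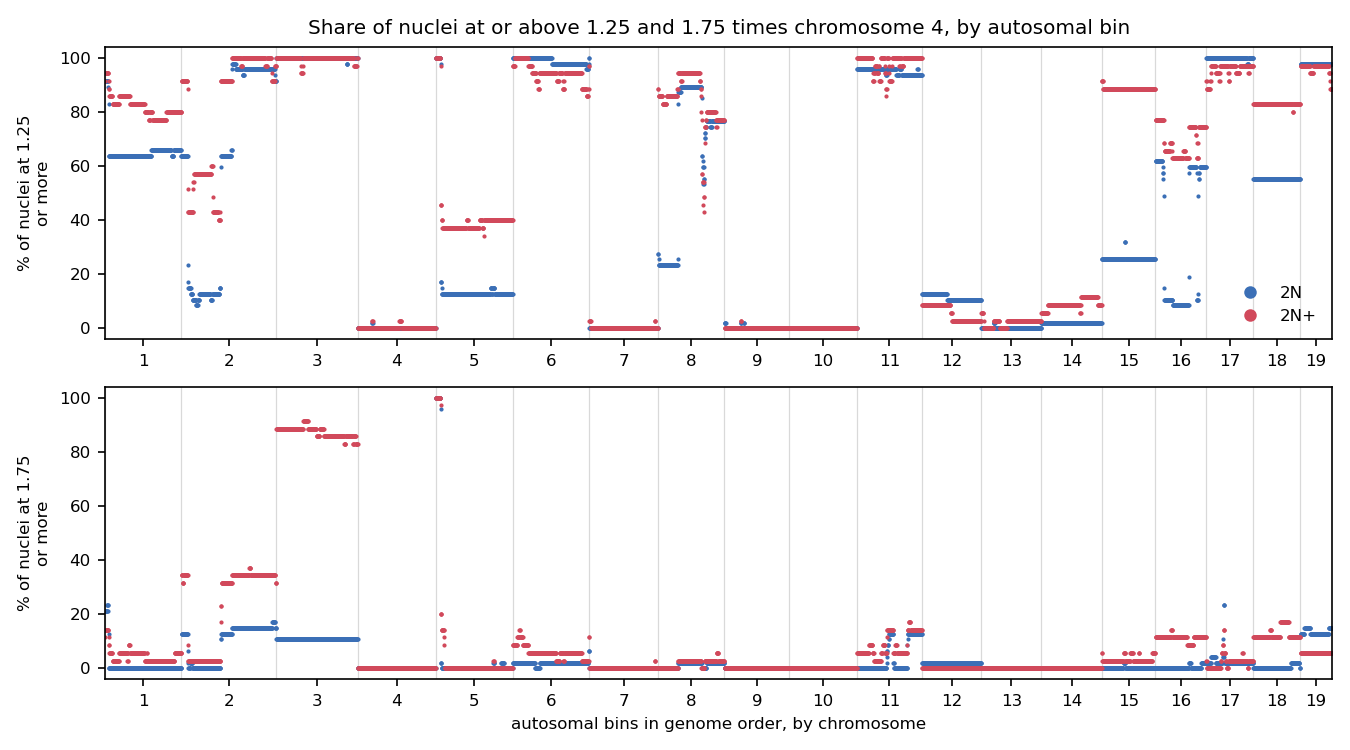
Percentage of nuclei in each gate whose ratio to chromosome 4 was raised (upper panel) or high (lower panel), in each autosomal bin in genome order. The gates part on chromosomes 2, 5, 8, 15, 16 and 18 and on part of chromosome 1 in the upper panel, and on chromosomes 2 and 3 in the lower panel.

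The combinations of raised states were counted next. A nucleus was scored for 5 states: a high chromosome 3, and a raised chromosome 15, longer stretch of chromosome 16, start of chromosome 8 and inner stretch of chromosome 2. These states were chosen on the gate difference, so their counts describe how they combine. The median number was 4 of 5 for 2N+ nuclei and 0 of 5 for 2N nuclei. All 5 were present in 14 of 35 2N+ nuclei against 0 of 47 2N nuclei. None was present in 32 of 47 2N nuclei against 3 of 35 2N+ nuclei. At least 3 were present in 31 2N+ nuclei and 9 2N nuclei.

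Within the 2N+ gate each of the other states was present in most nuclei with a high chromosome 3, but all of them in only 14 of 30. Of the 30 2N+ nuclei with a high chromosome 3, 29 had chromosome 15 raised, 28 the start of chromosome 8, 20 the chromosome 16 stretch and 19 the chromosome 2 stretch. Of the 5 2N+ nuclei without a high chromosome 3, these counts were 2, 2, 2 and 1. Among all 35 they were 31, 30, 22 and 20. The other 3 of these 5, nuclei 22, 24 and 25, had none of the states, and the 2 with any had chromosome 15, the start of chromosome 8 and the chromosome 16 stretch raised in 2 of 2. Not all states went together: in the 2N gate the chromosome 16 and chromosome 2 stretches were raised together in 0 of 47 nuclei, the first alone in 4 and the second alone in 6. The start of chromosome 8 and chromosome 15 were raised together in 30 of 35 2N+ nuclei, and chromosome 15 without it in 1. In the 2N gate they were raised together in 10 of 47 nuclei, chromosome 15 alone in 2 and the start of chromosome 8 alone in 1. The mean autosomal ratio had a median of 1.33 in 2N+ nuclei with the high chromosome 3 and of 1.3 in the 5 2N nuclei that shared it. In nuclei without it the medians were 1.246 (2N+, n = 5) and 1.22 (2N, n = 42). Chromosome 3 holds 308 of the 4636 bins in this mean, so part of that gap is set by the split itself.

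The 2N nuclei with 3 or more states were of more than 1 kind. In 3 of them chromosome 3 was high and chromosome 15, the start of 8 and the middle of 16 were raised, but not the inner stretch of 2. That exact pattern was also found in 5 2N+ nuclei. In 5 others chromosome 15, the start of chromosome 8 and the inner stretch of chromosome 2 were raised. In these 5, chromosome 3 was not high and the middle of 16 was not raised, a pattern found in 0 of 35 2N+ nuclei. With the middle of 16 raised as well, it was found in 1 2N+ nucleus. These 5 2N nuclei had high chromosomes 2 and 19 in 5 of 5 nuclei each. They had raised chromosomes 1 and 5 in 5 of 5 and a raised chromosome 18 in 0 of 5. Their mean ratio ran from 1.3 to 1.39, within the range of the 2N+ gate. They include 2N nuclei 7 and 39, which had 23 and 22 steps inside chromosomes, and nucleus 7 is the one named above for its uneven chromosome 4. In the 4 2N+ nuclei that had every state but that of chromosome 16, chromosome 2 was high in 4 of 4 and chromosome 19 in 2 of 4, and chromosome 5 was raised in 4 of 4 and chromosome 18 in 2 of 4.

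**Figure D5:**
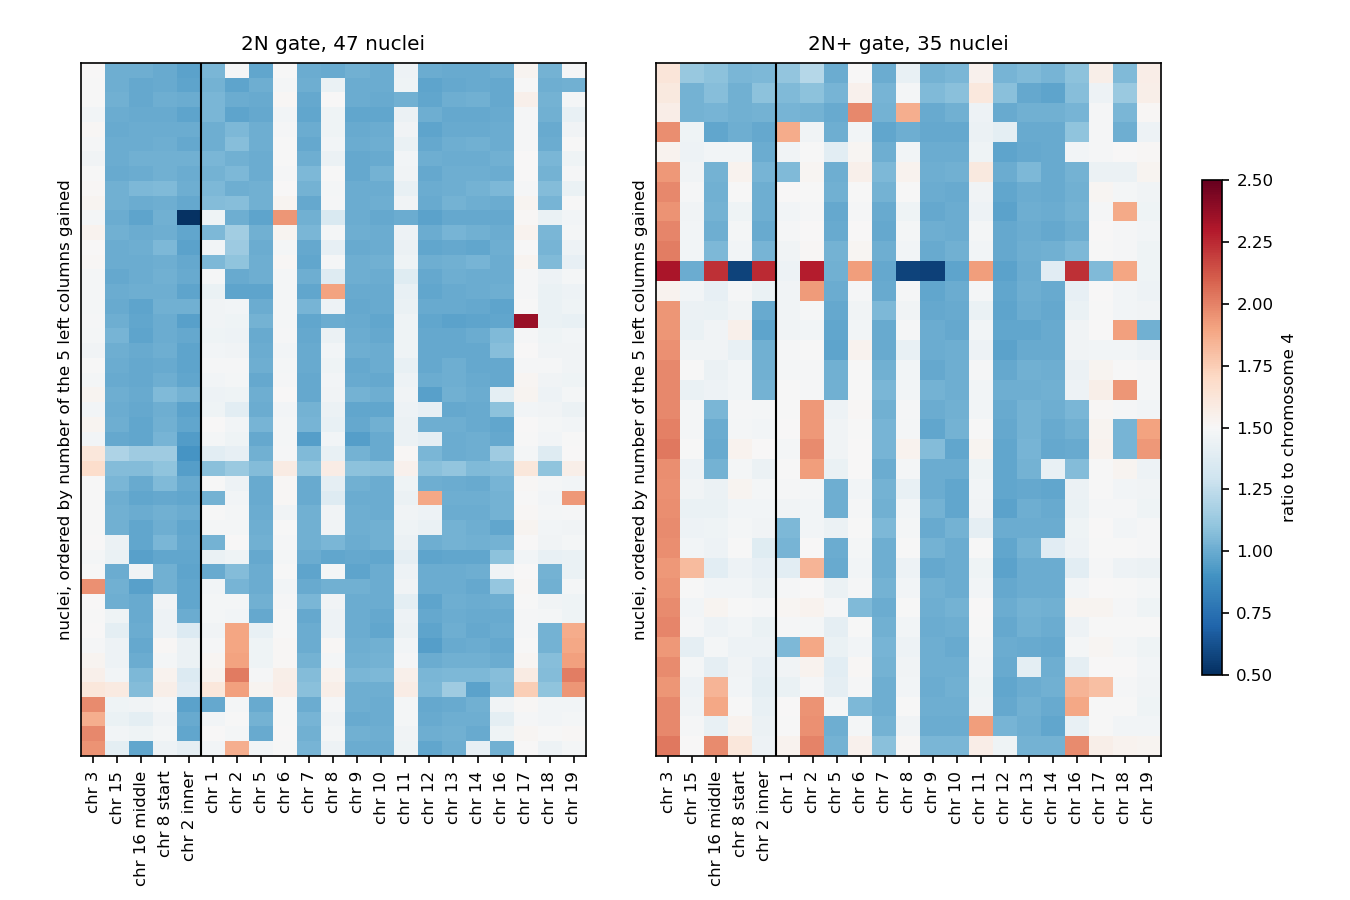
Ratio to chromosome 4 (colour) in each nucleus (row) of the 2N gate (left) and the 2N+ gate (right). The first 5 columns are the chromosomes and stretches scored for the 5 states, the others are whole autosomes other than 3, 4 and 15, and nuclei with more of the 5 states stand lower. The 32 2N nuclei with none of them fill the top of the left panel, and 3 such nuclei stand at the top of the right panel.

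Some 2N+ nuclei went against the gate. By the mean absolute difference over bins, 3 of 35 2N+ nuclei (8.57%) were nearer to the 2N median profile than to that of the other 2N+ nuclei, and 7 of 47 2N nuclei (14.9%) were nearer to the 2N+ profile. These 3 were 2N+ nuclei 22, 24 and 25, the same that had none of the 5 states. Their mean ratios were 1.2, 1.21 and 1.246, and their chromosome 3 was at 1.62, 1.60 and 1.57. Nucleus 25 had chromosome 6 at 1.98 and chromosome 8 at 1.86. They had 74, 72 and 24 steps inside chromosomes, where the median of the gate was 10 steps. Whether that step count bears on their place in the gate was not tested. Without the 2 nuclei of over 60 steps, the difference in the mean ratio was 0.0950 and 778 bins were called.

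At the other end, 2N+ nucleus 30 had the highest mean ratio, 1.41, with only 5 steps. Its chromosomes 2, 3 and 16 were at 2.28, 2.31 and 2.23, its chromosomes 8 and 9 at 0.577 and 0.566, and its chromosomes 15 and 17 at 1.00 and 1.06. It was the only nucleus of either gate with an autosome whose median was nearer to 0.5 than to 1. In the 2N gate, nucleus 12 had chromosome 17 at 2.37 and chromosome 8 at 1.0, where the gate median of chromosome 8 was 1.46.

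Steps inside chromosomes were about as frequent in both gates, apart from a few nuclei. A step is a change of 0.25 or more between neighbouring bins. The 2N nuclei had from 4 to 23 steps with a median of 9 and an SD of 4.21, and the 2N+ nuclei had from 3 to 74 with a median of 10 and an SD of 17.4. Steps fell at 271 positions, of which 177 were in 1 nucleus and 29 in 5 or more nuclei. Of these 29, 27 were found in both gates. The other 2 were found in 5 2N+ nuclei each and no 2N nucleus, at 21462838 on chromosome 5 and at 88721158 on chromosome 8, both steps down.

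Of the positions found in both gates, 4 were in more than 50% of the nuclei of each. The step at 14159646 on chromosome 5 was in 47 of 47 and 35 of 35 nuclei, and that at 5715258 in 45 and 31. On chromosome 2, the step down at 14885854 was in 30 of 47 2N and 29 of 35 2N+ nuclei and the step up at 75743671 in 30 and 28. The share of nuclei differed by 20 percentage points or more at 7 positions, each of them less frequent in the 2N+ gate. These were 43640396 on chromosome 8 (30 of 47 and 3 of 35), 4 positions on chromosome 16 (18611456, 66290028, 80661654 and 83740532, with 22 to 24 of 47 and 4 of 35), 97908371 on chromosome 2 (16 and 3) and 15332558 on chromosome 1 (14 and 3). A nucleus in which both sides of such a position are at the same level shows no step there, so these counts and those of the forms of chromosomes 8 and 16 are the same observation.

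The bulk libraries, 1 for each gate, were not used to choose any of this. For the 6 autosomes whose median or share of nuclei differed most between gates, the bulk 2N+ minus 2N difference had the sign of the difference of nucleus means in 6 of 6. Over all 18 autosomes the signs were the same in 15, and the bulk difference was above 0 in 16. The ratio of chromosome 3 was 1.56 in the 2N bulk and 1.88 in the 2N+ bulk, that of chromosome 15 was 1.14 and 1.42, that of chromosome 16 was 1.06 and 1.3, and that of chromosome 18 was 1.21 and 1.44. For the start of chromosome 8 the bulk ratios were 1.12 and 1.41, and for the inner stretch of chromosome 2 they were 1.05 and 1.2. The mean over autosomes was 1.22 and 1.31, as were the medians of the nuclei. The bulk ratio lay within 0.0886 of the mean of the 2N nuclei and within 0.0672 of that of the 2N+ nuclei for each of 18 autosomes.

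Cancer genes were placed by chromosome only, since no annotation of mm9 was used here. As every bin of chromosomes 3 and 15 was higher in the 2N+ gate, genes of these chromosomes share their ratio. Of a list of 46 genes, 8 (17.4%) lie there, against 1759 of 20665 autosomal protein-coding genes (8.51%). The list was chosen with earlier results of these data known, so these shares are a description and an enrichment was not tested. By role these were 5 of 22 oncogenes, 1 of 14 tumour suppressors and 2 of 10 genes of chromosome segregation. On chromosome 3 are Pik3ca, the catalytic subunit of a PI3 kinase, Nras, a small GTPase of the Ras family, Sox2, a transcription factor of stem cells, and Ect2, which acts in cytokinesis. Also there are Fbxw7, the substrate receptor of a ubiquitin ligase, and Cenpe, a kinetochore motor. On chromosome 15 are Myc, a transcription factor of growth, and Rad21, a subunit of cohesin. On chromosomes 2 and 8 the list has Bub1 and Bub1b, kinases of the spindle checkpoint, Aurka, Bcl2l1 and Fgfr1, which were not placed inside or outside the stretches. The libraries are of genomic DNA, so the values say nothing of expression.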

How the data were processed

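The deposited table holds, per library and bin, a linear ratio to the genome-wide level of that library. No header states this: library means ran from 0.994 to 1.09, and neighbouring bins mostly hold equal values. Per the submitters' processing notes, Bowtie 1.0 and the build mm9 were used. How bins were made, whether GC was corrected and how segments were drawn is not given in the sources used here. Segmented values hide changes shorter than a segment.

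Each library was assigned by its title. Bins were divided by the chromosome 4 median of the same nucleus. A chromosome or stretch is its median over bins, raised from 1.25 and high from 1.75. A step at a position was joined over 3 bins. No 2 of the 82 nuclei held identical values: the smallest mean difference of 3321 pairs was 0.0156. Named were the stretches, and autosomes whose medians differed by 0.25 or whose shares at 1.25 or 1.75 differed by 20 percentage points. Members, thresholds, states and gene list were chosen with earlier results of these data known. The sections of chromosome 5, the combinations of states and the single nuclei were chosen after their values were seen. Gene symbols were matched to chromosomes in a RefSeq table of assembly GRCm38.p6, with 46 of 46 found. Functions were tested on simulated data. Calculations ran in Python 3.11.15 (pandas 2.3.3, numpy 2.4.6), with intervals from scipy 1.17.1 and plots from matplotlib 3.10.9.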

Additional observations from a re-analysis of the deposited data

Results flagged for a closer look

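Chromosomes X and Y lie outside the autosomes compared, and their signal was higher in 2N+ nuclei, with the 2N gate as the comparison group and not as a true control. The ratio of chromosome X to chromosome 4 had a mean of 0.876 among 2N+ nuclei (lowest 0.526, median 0.990, highest 1.49, n = 35) and of 0.574 among 2N nuclei (lowest 0.511, median 0.532, highest 1.02, n = 47). The ratio of chromosome Y, which has 3 bins, had a mean of 0.229 among 2N+ nuclei (lowest 0.0153, median 0.0319, highest 1.04) and of 0.0643 among 2N nuclei (lowest 0.00384, median 0.0113, highest 0.899). The gates overlapped for both chromosomes, and the difference was not tested.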

How the results depend on the processing

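Of 217 values of 35 results under the alternatives, 208 were scored as the same as the main value, 9 as moved and 0 as reversed. A value scored as the same could still differ in size. With means over bins, the difference of chromosome 2 was 0.133 in place of 0.0437. All 9 that moved were counts or shares, and a move is not a change of direction. Counts and shares have no sign to reverse, so the 0 does not bear on them. With gate means and a threshold of 25% of a copy step, 1476 bins were higher and 10 lower in the 2N+ gate. With steps of 0.1 the 2N median was 17 steps in place of 9. The 2N+ median was also 17, in place of 10, and was scored as the same because that shift is below the SD of its gate, 17.4. At this step size 65 positions were in 5 or more nuclei. With steps of 0.4 there were 19 such positions and 95 positions in 1 nucleus. Joining steps within 0 bins gave 340 positions in 1 nucleus and within 10 bins 82. Without the nuclei of more than 20 steps (2 of the 2N and 4 of the 2N+ gate), an alternative chosen after seeing the data, chromosome 2 was raised in 100% of 2N+ nuclei in place of 91.4%. For these moves the cause was not tested, apart from the wider or narrower count that the setting itself makes. With chromosomes 7, 9, 10 and 13 as reference, 766 bins were called and the mean ratio differed by 0.0836. Leaving out nuclei whose distance from multiples of 0.5 was above 0.1 was not run, as 0 nuclei had such a distance. No paired analysis was possible because replicate numbers only name nuclei and the results come from no test. Depth is unknown, a gate is 1 sample, and a doubled genome cannot be seen in these ratios.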
